A study of Mus musculus with 2 samples.

Results

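Cholesterol synthesis and handling were examined through 29 genes of the 31252 gene rows in an RNAseq table of mouse ventral midbrain tissue. These 29 genes were chosen by name for their textbook roles, with earlier results of these data known. Of these genes, 18 encode enzymes of the pathway from acetyl-CoA to cholesterol, 5 encode proteins that sense and control sterol levels, and 6 encode proteins of efflux, turnover, storage and lysosomal export. The 18 enzymes do not cover every step of the pathway. All 29 had a row, with Msmo1 listed under its older symbol Sc4mol, and their counts ran from 226 to 6946 in a library, so all passed the minimum mean of 10 counts that 15246 genes met.

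The mice were 2 months old and of strain incipient congenic C57BL/6, and 1 library bears the label Ctrl and 1 the label OE. Ctrl stands for Slc6a3-Cre and OE for Slc6a3-Cre together with CAG-S-COUP-TFII, an allele from which Cre switches on the nuclear receptor COUP-TFII, so both groups carry Cre and only OE carries the allele. Cre is driven by the gene of the dopamine transporter, so the allele is active in dopaminergic (DA) neurons, a small part of the cells in this tissue. In the breeding scheme of the study, Ctrl and OE littermates come from parents with floxed Tfam and a tdTomato reporter, which the labels of these libraries do not mention. Whether a library holds RNA from 1 mouse or several is not given in the sources used here. With 1 library per group there is no test across mice, and every interval below is a 95% interval for counting error, which compares these libraries and not the genotypes.

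The libraries held 16984336 (labelled Ctrl) and 21326632 (labelled OE) counts. Nr2f2, the gene of COUP-TFII, had 637 counts in the Ctrl-labelled library and 377 in the OE-labelled library, a log2 difference of -1.07 (interval -1.26 to -0.88). The overexpressed gene therefore went against the labels, which are kept as given, and each direction below is that of the OE-labelled library against the Ctrl-labelled library. The study measured the overexpression in isolated DA neurons, so this value from whole ventral midbrain is not the same measure. The labels name DA neurons as the cell type, yet 12 oligodendrocyte markers summed to 21109 and 17642 CPM (counts per 1000000, scaled by TMM) and 16 DA neuron markers to 1523 and 3610 CPM, so the RNA is that of mixed tissue. All 16 DA markers were higher in the OE-labelled library (median log2 difference 1.26), 17 of 19 thalamus markers were lower (median -1.60) and all 12 oligodendrocyte markers were lower (median -0.32). Across the 15246 tested genes, 7782 were higher and 7464 lower. The marker lists, too, were chosen with earlier results of these data known. In such bulk RNA, fewer cells of a type and less RNA per cell cannot be told apart.

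The brain makes nearly all of its own cholesterol, because lipoproteins of the blood do not cross into it. Oligodendrocytes use much of it for myelin, and astrocytes make cholesterol that neurons take up. When sterols run low in the endoplasmic reticulum, SCAP carries the SREBP proteins to the Golgi, where they are cut to release transcription factors that switch on the enzymes, and when sterols are plentiful the INSIG proteins hold SCAP back. Neurons remove cholesterol by turning it into a hydroxylated form that leaves the brain, through the enzyme encoded by Cyp46a1.

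The promoters of 5 members are shown because these genes carry the differences described below: 3 of the enzymes that were lower in the OE-labelled library beyond counting error (Hmgcs1, Idi1 and Msmo1), the member with the largest difference (Cyp46a1) and the member highest relative to the Ctrl-labelled library (Soat1). Each runs 5′ to 3′ on the strand of the gene over the 250 bases before its start, or for Cyp46a1 the 202 of these that lie outside the annotated gene (RefSeq, GRCm38.p6). Capitals mark CACCCCAC, the core of the sterol regulatory element (SRE) that SREBP proteins bind, CCAAT, the box bound by NF-Y, and AGGTCA, the core motif that COUP-TFs and other nuclear receptors bind as repeats, each on either strand, so that GTGGGGTG, ATTGG and TGACCT are their reverse forms.
Hmgcs1 (chr13:119690101-119690350, plus strand): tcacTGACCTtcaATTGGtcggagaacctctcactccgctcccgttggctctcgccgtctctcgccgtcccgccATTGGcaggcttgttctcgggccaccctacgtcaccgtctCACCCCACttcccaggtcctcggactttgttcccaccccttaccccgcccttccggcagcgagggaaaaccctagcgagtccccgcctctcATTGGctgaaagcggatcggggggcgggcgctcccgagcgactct
Idi1 (chr13:8885356-8885605, plus strand): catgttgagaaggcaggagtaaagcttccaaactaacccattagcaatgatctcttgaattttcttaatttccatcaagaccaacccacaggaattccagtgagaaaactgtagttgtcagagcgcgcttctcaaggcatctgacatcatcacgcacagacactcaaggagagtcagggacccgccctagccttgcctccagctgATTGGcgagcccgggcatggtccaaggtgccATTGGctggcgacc
Msmo1 (chr8:64733579-64733828, minus strand): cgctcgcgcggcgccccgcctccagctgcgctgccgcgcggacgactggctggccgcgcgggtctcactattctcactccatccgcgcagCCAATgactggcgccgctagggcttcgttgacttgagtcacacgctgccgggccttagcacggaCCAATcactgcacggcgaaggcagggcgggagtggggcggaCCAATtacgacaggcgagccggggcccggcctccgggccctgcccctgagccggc
Cyp46a1 (chr12:108334066-108334267, plus strand): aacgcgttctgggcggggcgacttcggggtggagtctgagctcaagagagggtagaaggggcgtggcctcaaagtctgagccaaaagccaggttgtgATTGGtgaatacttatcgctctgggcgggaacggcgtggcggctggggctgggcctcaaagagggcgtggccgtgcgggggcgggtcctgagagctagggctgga
Soat1 (chr1:156474329-156474578, minus strand): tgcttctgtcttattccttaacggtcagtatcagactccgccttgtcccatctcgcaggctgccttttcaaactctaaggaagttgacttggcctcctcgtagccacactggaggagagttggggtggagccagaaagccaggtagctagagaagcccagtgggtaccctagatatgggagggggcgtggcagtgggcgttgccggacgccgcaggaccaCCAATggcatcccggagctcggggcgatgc

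Promoter sequences were found for 24 of the 29 genes, in 32 windows of 250 bases, of which those of a gene with several starts can overlap. CCAAT occurred in 22 of the 32 windows (68.8%), against 35.4% of 21263 windows of protein-coding genes and 33.8% of all 32851 windows. In the sequences above, Hmgcs1 and Msmo1 hold 3 CCAAT boxes each, Idi1 holds 2 and Cyp46a1 and Soat1 hold 1 each. The GC box GGGCGG, searched on both strands and not marked above, was in 78.1% of the member windows and 42.6% of protein-coding windows. The SRE core CACCCCAC was in 2 member windows, those of Hmgcs1 and Acat2 (6.25%), against 2.57% of protein-coding windows. In Hmgcs1 this match starts 136 bases before the transcription start and reads TCACCCCAC with the base before it, the only member window with these 9 letters. The full 10-letter element was in none, and 0.0517% of protein-coding windows held it. AGGTCA was in 5 member windows, those of Hmgcs1, Insig1 and 3 of Dhcr7 (15.6%), against 12.8% of protein-coding windows. No member window held a direct repeat of AGGTCA with a spacer of 1 base, which 0.0423% of protein-coding windows held. This repeat and the 10-letter element are so rare that their absence from 32 windows carries no information. These are exact matches in short windows, and say nothing of sites elsewhere or of binding.

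Most of the 29 genes differed little between the libraries. Taking a log2 difference of 0.2 as the threshold, the fold the study used for its own gene list, 2 members (Srebf1 and Soat1) were higher in the OE-labelled library and 3 (Idi1, Dhcr7 and Cyp46a1) were lower. Over all 15246 genes tested, 17.9% were higher and 16.6% lower by as much, against 6.90% and 10.3% of the members. The members are well counted, and among the 11735 genes that averaged at least 100 counts, 13.0% were higher and 11.7% lower. Within the threshold lay 24 of the 29 members (82.8%), against 65.5% of all tested genes and 75.3% of those with at least 100 counts. The counting interval lay above 0 for 4 members, or 13.8%, and below 0 for 6, or 20.7%, where 15.8% and 14.4% of all tested genes, and 17.9% and 16.1% of those averaging at least 100 counts, did so. The median log2 difference of the 29 was -0.043, and that of all tested genes 0.0046. The split of 2 higher to 3 lower became 1 to 5 when libraries were scaled by total counts and 3 to 3 when they were scaled by the upper quartile, because Srebf1, Abca1, Hmgcs1 and Ebp lie close to the threshold.

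**Figure D1:**
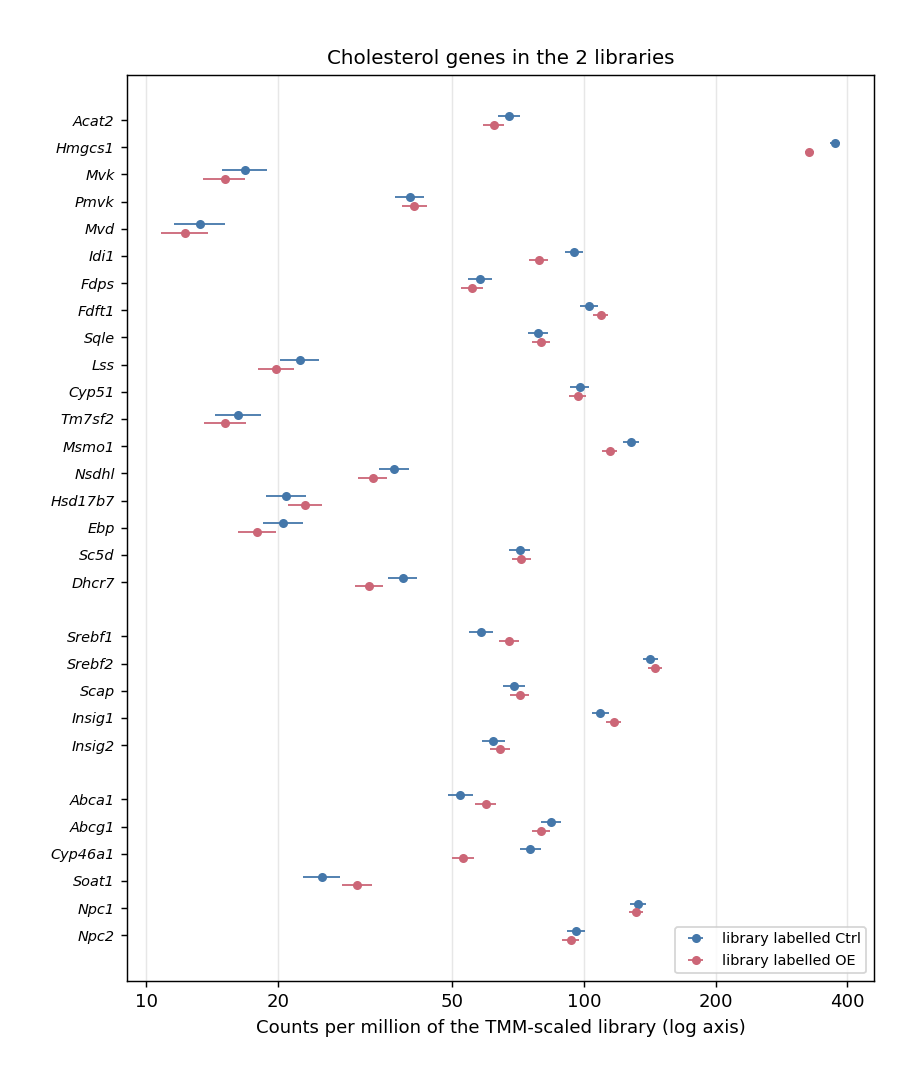
CPM of each of the 29 genes in the Ctrl-labelled library (blue) and the OE-labelled library (red), on a log axis, with exact 95% Poisson intervals and genes grouped into synthesis, sensing and handling. Intervals do not overlap between the libraries for Hmgcs1, Idi1, Msmo1, Dhcr7 and Cyp46a1, lower in the OE-labelled library, and for Srebf1, Abca1 and Soat1, higher in it. Overlap was not counted over all tested genes, so no share can be set beside these names.

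Among the 18 synthesis enzymes, 13 were lower and 5 higher in the OE-labelled library, and their median log2 difference was -0.11. Of all 15246 tested genes, 7464 were lower and 7782 higher, which is the background for every count of directions below. Summed over the 18 genes, the level was 1298 CPM in the Ctrl-labelled library and 1205 CPM in the OE-labelled library, a log2 difference of -0.11 (interval -0.13 to -0.081). Abundant genes weigh most in this sum: Hmgcs1 held 50.9% of the difference, and Hmgcs1, Idi1 and Msmo1 together 82.8%. The other 15 enzymes summed to 700.4 and 684 CPM, a log2 difference of -0.033 whose interval, -0.068 to 0.0018, held 0. Those 3 have the largest drops in CPM of the 18, so leaving them out moves the rest toward 0 by construction. The value of the rest therefore shows only where the sum comes from. The counting interval lay below 0 for 5 enzymes, Hmgcs1, Idi1, Msmo1, Nsdhl and Dhcr7 (27.8% of the 18), and above 0 for none. Of all tested genes, 14.4% had an interval below 0 and 15.8% above, and of those averaging at least 100 counts 16.1% and 17.9%.

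The steps from acetyl-CoA to farnesyl diphosphate, which also feed the isoprenoids, were covered by 7 of these enzymes, and 6 of the 7 were lower. Hmgcs1, the synthase that makes HMG-CoA, was the most abundant of the 29 genes, with 6398 counts in the Ctrl-labelled library and 6946 in the OE-labelled library, which are 375 and 327 CPM. Its log2 difference was -0.19 (interval -0.24 to -0.15), a level 12.6% lower. It held 28.9% (interval 28.3% to 29.5%) of the counts of the 18 enzymes in the Ctrl-labelled library and 27.2% (interval 26.6% to 27.7%) in the OE-labelled library. Idi1, the isomerase that prepares the C-5 building blocks for joining, had 1621 and 1670 counts, or 94.9 and 78.7 CPM, a difference of -0.27 (interval -0.37 to -0.17). The Idi1 difference was the largest of the 18 enzymes. Acat2, the cytosolic thiolase of the opening step, had 67.3 and 62.2 CPM, with an interval from -0.23 to 0.0012. The kinase Mvk (16.8 and 15.1 CPM), the decarboxylase Mvd (13.2 and 12.3 CPM) and Fdps, the farnesyl diphosphate synthase (57.7 and 55.5 CPM), had intervals that held 0. Pmvk, the phosphomevalonate kinase, was the 1 enzyme of this stretch with the higher value in the OE-labelled library, at 39.9 and 41.0 CPM (log2 difference 0.036, interval -0.11 to 0.18).

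The 3 enzymes that commit farnesyl diphosphate to sterols did not differ beyond counting error. Fdft1, the squalene synthase, had 1751 and 2314 counts (103 and 109 CPM), a log2 difference of 0.089 whose interval, -0.0012 to 0.18, reached just below 0. Sqle, the squalene epoxidase, which is a rate-limiting step, had 78.4 and 79.8 CPM (log2 difference 0.024, interval -0.080 to 0.13). Lss, which closes the rings to give lanosterol, had 22.4 and 19.8 CPM (-0.18, interval -0.38 to 0.023). Their summed level was 203 and 209 CPM, a log2 difference of 0.037 (interval -0.028 to 0.10), whereas the 7 enzymes before them summed to 665 and 592 CPM, a log2 difference of -0.17 (interval -0.20 to -0.13). That second sum rests mostly on Hmgcs1 and Idi1, the most abundant of the 7 and the only ones whose own interval excluded 0.

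From lanosterol to cholesterol, 6 of 8 enzymes were lower, with a median log2 difference of -0.13 and summed levels of 430 and 404 CPM. Dhcr7, the reductase of the last step of one branch, had 658 and 685 counts, or 38.5 and 32.3 CPM, a difference of -0.26 (interval -0.41 to -0.099). Msmo1, the methylsterol oxidase, had 2186 and 2430 counts, or 128 and 115 CPM, a difference of -0.16 (interval -0.24 to -0.077). Nsdhl, the dehydrogenase that acts with it, had 36.8 and 32.9 CPM and an interval that only just excluded 0 (-0.32 to -0.0029). The sterol isomerase Ebp had a larger point value, -0.20, but with 351 and 380 counts its interval held 0 (-0.41 to 0.015). The other four of this stretch were not separated from 0. Cyp51, the lanosterol demethylase, had 97.7 and 96.7 CPM, and the desaturase Sc5d had 71.3 and 71.9 CPM. Tm7sf2, a sterol reductase, had 16.2 and 15.1 CPM. Hsd17b7, the ketoreductase of the demethylation complex, had the highest point value of the 18 enzymes, 0.14 (interval -0.055 to 0.35), at 20.9 and 23.1 CPM.

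**Figure D2:**
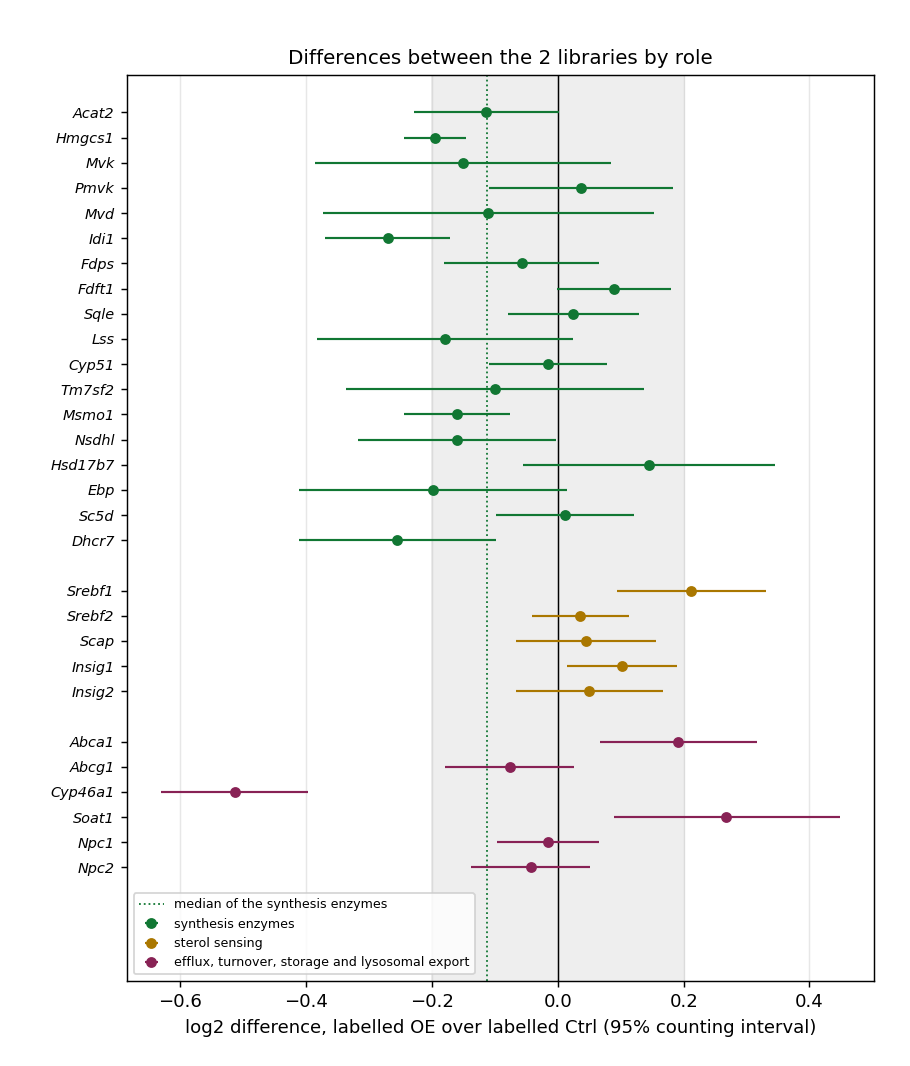
Log2 difference of each gene between the OE-labelled library and the Ctrl-labelled library, with its 95% counting interval, coloured by role; the grey band spans a log2 difference of -0.2 to 0.2 and the dotted line is the median of the 18 enzymes, -0.11. Most enzymes lie left of 0 inside the band, the 5 sensing genes lie right of 0, and Cyp46a1 lies farthest from 0, at -0.51.

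All 5 genes of sterol sensing had the higher value in the OE-labelled library, with a median log2 difference of 0.050 and a summed level of 440 and 465 CPM (log2 difference 0.080, interval 0.037 to 0.12). The largest difference was that of Srebf1, which encodes SREBP-1, the form that acts mainly on fatty acid synthesis. It had 993 counts in the Ctrl-labelled library and 1429 in the OE-labelled library, or 58.2 and 67.4 CPM, a log2 difference of 0.21 (interval 0.094 to 0.33). Srebf2, which encodes SREBP-2, the main activator of the cholesterol enzymes, had 2421 and 3083 counts, or 142 and 145 CPM, and its log2 difference of 0.036 was within counting error (interval -0.042 to 0.11). Insig1, itself a target of SREBP-2, had 109 and 117 CPM (log2 difference 0.10, interval 0.015 to 0.19). Insig2 (62.02 and 64.2 CPM) and Scap (69.1 and 71.3 CPM) had intervals that held 0.

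The summed enzymes and the summed sensing genes thus lay on opposite sides of 0. A few genes weighed most in each sum: Hmgcs1, Idi1 and Msmo1 among the enzymes, and Srebf1 and Insig1 among the sensing genes. The other sensing genes had intervals that held 0. Within a library, where scaling plays no part, the enzymes had 2.95 counts per count of the sensing genes in the Ctrl-labelled library and 2.59 in the OE-labelled library, a log2 change of -0.19 (interval -0.24 to -0.14). The enzymes were also set against glial markers, as these cells make much of the cholesterol of the brain. Against the 12 oligodendrocyte markers (21109 and 17642 CPM in all, 12 of 12 lower and none at 0) the ratio of the enzymes was higher by log2 0.15 (interval 0.12 to 0.18), and against the 12 astrocyte markers (5473 and 5196 CPM, 9 of 12 lower and none at 0) it changed by -0.032 (interval -0.061 to -0.0033). The part of glial content in the values of the enzymes was not tested.

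The 6 genes of handling held both the largest difference of the 29 and the 2 highest values outside sensing. Cyp46a1, the neuronal hydroxylase that starts the removal of cholesterol from the brain, had 1288 counts in the Ctrl-labelled library and 1121 in the OE-labelled library, although the latter was sequenced more deeply. Scaled, these are 75.4 CPM (interval 71.4 to 79.7) and 52.8 CPM (interval 49.8 to 56.0), a level 29.9% lower, or a log2 difference of -0.51 (interval -0.63 to -0.40). Of all tested genes, 4.78% had a lower value than Cyp46a1. The enzyme is known from neurons. The 10 pan-neuronal markers summed to 6832 and 7730 CPM, with 8 of the 10 higher in the OE-labelled library and none at 0. The 2 lower ones were Rbfox3 (log2 difference -0.21, interval -0.32 to -0.095) and Map2 (-0.020, interval -0.048 to 0.0081). Markers of neuron types moved in both directions beside Cyp46a1. The 16 DA markers, none at 0, summed to 1523 and 3610 CPM. The 19 thalamus markers summed to 1723 and 1154 CPM, with Gbx2 at 30 counts in the Ctrl-labelled library and 0 in the OE-labelled library. The part of neuron composition in the Cyp46a1 value was not tested.

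Soat1, which esterifies cholesterol for storage, had 429 and 642 counts, or 25.1 and 30.3 CPM, a level 20.4% higher in the OE-labelled library (log2 difference 0.27, interval 0.090 to 0.45). Abca1, which exports cholesterol to lipoprotein particles, had 891 and 1264 counts, or 52.2 and 59.6 CPM, a log2 difference of 0.19 (interval 0.066 to 0.32). Its partner in efflux Abcg1 lay on the other side of 0, with 84.0 and 79.7 CPM (-0.076, interval -0.18 to 0.026). Npc1 and Npc2, the membrane and luminal proteins that pass cholesterol out of the lysosome, were the most even genes of handling. Npc1 had 133 and 131 CPM (-0.016, interval -0.096 to 0.065) and Npc2 had 95.99 and 93.1 CPM (-0.043, interval -0.14 to 0.052). Microglia, which also express genes of sterol efflux and storage, had 10 markers that summed to 356 and 295 CPM, 9 of them lower in the OE-labelled library and none at 0. The part of microglia in these values was not tested.

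Ratios of paired genes, taken inside each library, do not depend on scaling. The 6 pairs were picked after the values had been seen, and Soat1 and Cyp46a1 are the members with the highest and lowest differences, so the ratios restate the values above free of scaling and are no further evidence. Soat1 had 0.333 counts per count of Cyp46a1 in the Ctrl-labelled library and 0.573 in the OE-labelled library, a log2 change of 0.78 (interval 0.57 to 0.997). Abca1 had 0.621 and 0.747 counts per count of Abcg1, a change of 0.27 (interval 0.11 to 0.43). Both ratios follow from the differences of the single genes, which lay on opposite sides of 0. Srebf1 gained on its paralogue Srebf2, from 0.410 to 0.463 counts per count (0.18, interval 0.035 to 0.32), and on Scap, from 0.842 to 0.945 (0.17, interval 0.0049 to 0.33). The ratio of Insig1 to Insig2 was 1.76 and 1.82 and that of Npc1 to Npc2 was 1.38 and 1.41, and neither changed beyond counting error (intervals -0.094 to 0.20 and -0.097 to 0.15).

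**Figure D3:**
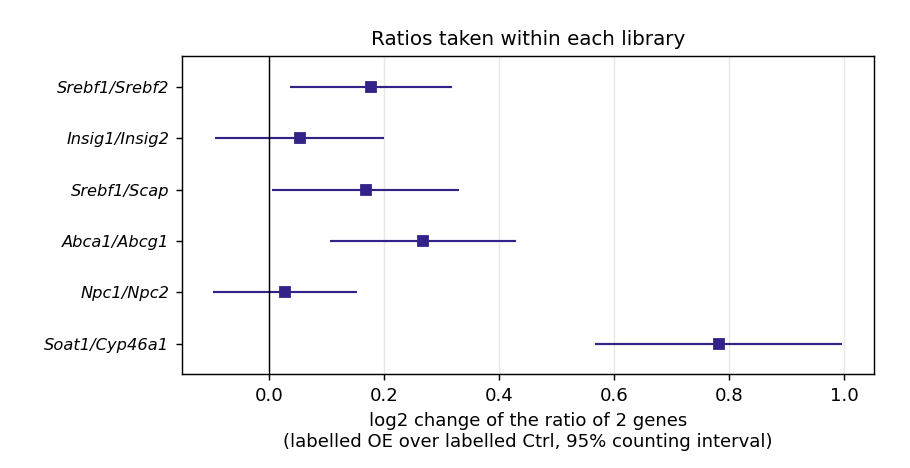
Log2 change, OE-labelled library over Ctrl-labelled library, of the ratio of counts of paired genes within each library, with exact 95% counting intervals. The ratio of Soat1 to Cyp46a1 lies farthest right, at 0.78, and the intervals of Insig1 to Insig2 and Npc1 to Npc2 hold 0.

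Per length, levels of different genes can be set side by side, here as CPM per kilobase of the longest principal transcript in GENCODE M21, which may not be the form expressed. Hmgcs1 ranked top of the 29 in both libraries, with 108 and 94.5 CPM per kilobase, followed by Msmo1 with 62.6 and 56.0. Insig1 ranked above its paralogue Insig2, at 40.4 and 43.4 against 23.0 and 23.8 CPM per kilobase, and Srebf2 above Srebf1, at 27.9 and 28.6 against 13.5 and 15.7. Soat1 ranked lowest in both libraries, with 3.0 and 3.6 CPM per kilobase, next to Hsd17b7, Lss and Abca1. The order was much alike in both libraries, and the gene that moved most was Cyp46a1, from rank 5 (35.6 CPM per kilobase) to rank 13 (24.9).

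Outside the 29 genes, 43 further genes of sterol sensing, uptake and carriers, and transfer between membranes were measured. Of 12 other sensing genes, 9 were higher in the OE-labelled library and 3 lower, with a median log2 difference of 0.063. Nr1h2, a liver X receptor that responds to oxysterols and switches on Abca1, Abcg1 and Srebf1, had 585 and 841 counts (log2 difference 0.21, interval 0.056 to 0.37). It was the only one of the 12 past the threshold with an interval that excluded 0. By this combined rule 1509 of all 15246 tested genes were higher and 1396 lower. Among the 11735 that averaged at least 100 counts, 1199 were higher and 1088 lower. The genes named below were picked by the same rule. Of 16 genes of uptake and carriers, 10 were lower and 6 higher (median -0.054). Scarb1, a receptor for high-density lipoprotein, had 299 and 307 counts (-0.27), the sorting receptor Sort1 had 6115 and 6462 (-0.23) and Lcat, which esterifies cholesterol on lipoproteins, had 447 and 482 (-0.20, interval -0.39 to -0.016). Lipa, the lysosomal lipase that frees cholesterol from its esters, was higher, with 777 and 1118 counts (0.21, interval 0.078 to 0.35). Of 15 genes of sterol transfer, 10 were lower and 5 higher (median -0.028). Here Stard4, a carrier that is a target of SREBP-2, was higher with 279 and 419 counts (0.27, interval 0.052 to 0.50), while Stard5, of the same family, was lower with 232 and 236 counts (-0.29, interval -0.56 to -0.021), as was the lipid transfer protein Osbpl8 with 1442 and 1517 counts (-0.24).

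**Figure D4:**
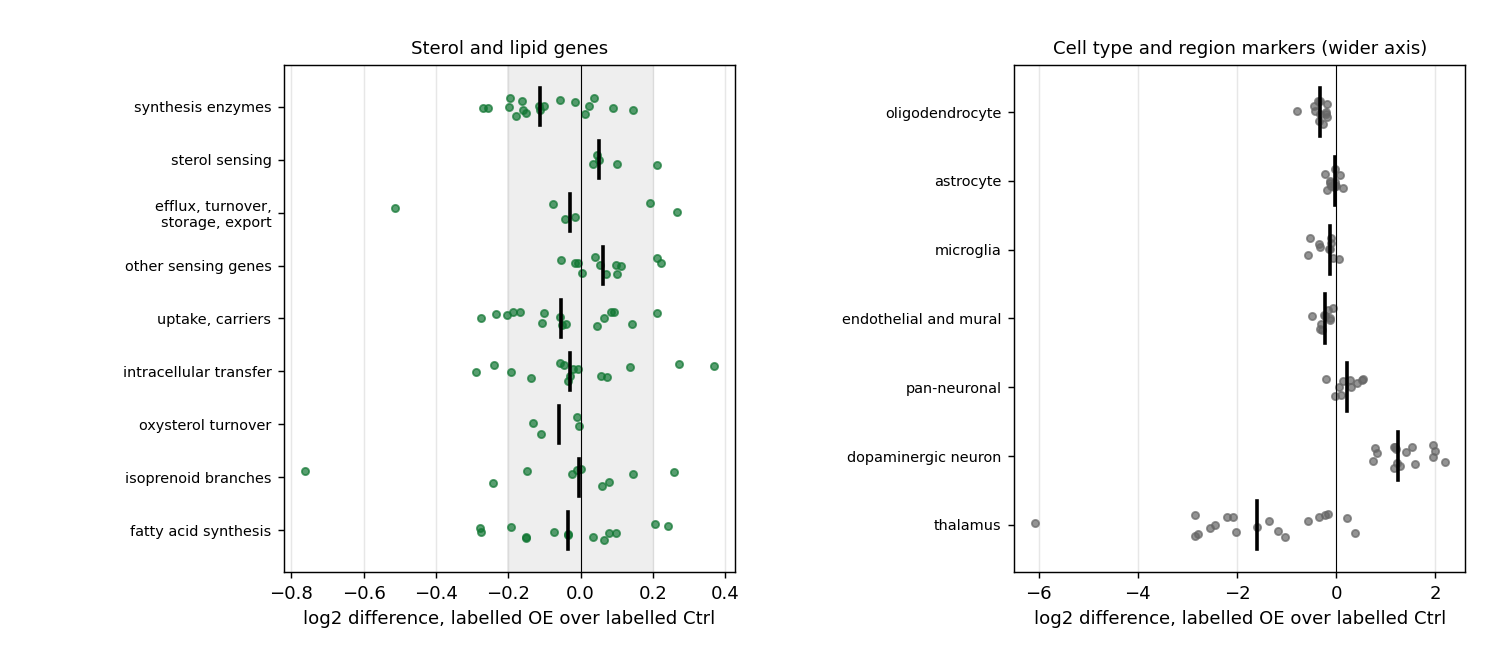
Log2 difference of every gene averaging at least 10 counts in each list, OE-labelled library over Ctrl-labelled library, with a black bar at the median; the left panel shows sterol and lipid genes with a grey band from -0.2 to 0.2, the right panel markers of cell types and of the thalamus on a wider axis. The sterol lists have medians from -0.11 to 0.063, whereas the DA neuron markers have a median of 1.26 and the thalamus markers one of -1.60.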

How the data were processed

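Ventral midbrain RNA was sequenced in a Ctrl-labelled and an OE-labelled library. The authors deposited expected counts per gene from RSEM, which shares reads between similar transcripts, made from stranded poly(A) libraries read from both ends over 50 bases. The processing notes name the build mm10. The aligner, RSEM version and annotation are not given in the sources used here. Libraries were matched to groups by the number in their labels, and Nr2f2 went against the labels, which were kept. Of the values, 95.4% are whole numbers.

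Counts were scaled with TMM (edgeR 4.0.16, R 4.3.3). Log2 differences used a pseudocount of 0.5 normalized counts, and counts of genes covered the 15246 genes that averaged at least 10 counts. Intervals are 95% Clopper-Pearson intervals on the split of the rounded counts, exact conditional intervals for ratios of genes, intervals from Poisson errors on a log scale for ratios of summed lists, and exact Poisson intervals for CPM (scipy 1.17.1, Python 3.11.15). They cover counting error only. With 1 library per group, no p-value was computed. The split intervals were checked on simulated counts. Gene coordinates and promoters came from RefSeq (GRCm38.p6) by symbol, and lengths from GENCODE M21.

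All 29 members are described. Other sterol and lipid genes are named where they passed log2 0.2 with an interval that excluded 0 and a mean of at least 100 counts, except 1 that is not reported here. The members and lists were chosen with earlier results of these data known. Alternatives were 3 other scalings (total counts, upper quartile, DESeq2 size factors 1.42.0), a pseudocount of 5, other count minimums and other thresholds.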

Additional observations from a re-analysis of the deposited data

How the results depend on the processing

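No paired analysis was possible because there is 1 library per group, and for the same reason no library could be left out. Nr2f2 kept its lower value in the OE-labelled library throughout (-1.08 to -1.06). The medians of the synthesis enzymes (-0.13 to -0.099), sensing genes (0.035 to 0.063) and handling genes (-0.045 to -0.016) kept their direction under every scaling and pseudocount tried. The other count minimums could not change these medians, because the lowest mean of a member was 243 counts. The number of members past log2 0.2 was less stable, since several lie near that value: with total counts as the scale there were 1 higher and 5 lower, and a threshold of log2 0.5 left 0 higher and 1 lower (Cyp46a1), which follows from the stricter threshold. Of the 29 single genes, only Sc5d changed sign, to -0.0036 with total counts, and no value moved beyond its counting interval. No scaling moved the median of all tested genes by over 0.1. The counting intervals of the members reached from 0.049 (Hmgcs1) to 0.26 (Mvd) on the log2 scale to either side, so smaller differences were not detectable at this depth, and variation between mice is not measured.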

Other observations

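Branches that share precursors with cholesterol were looked at next, in lists written with earlier results known. Of 14 genes of fatty acid synthesis, 8 were lower and 6 higher in the OE-labelled library, with a median log2 difference of -0.034. Acly, which supplies cytosolic acetyl-CoA to both pathways, had 4137 and 5934 counts (0.21, interval 0.15 to 0.26). In contrast, the desaturase Fads2 had 2110 and 2160 counts (-0.28, interval -0.37 to -0.19) and the elongase Elovl1 had 649 and 666 counts (-0.28, interval -0.43 to -0.12).

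Of the genes of isoprenoid branches, 10 of 11 were tested, with 6 lower and 4 higher (median -0.0050), and Idi2 had 0 counts in both libraries. Fntb, the beta subunit of farnesyltransferase, had 373 and 555 counts (0.26, interval 0.068 to 0.45). The 4 tested genes of oxysterol and bile acid type turnover had log2 differences from -0.13 to -0.0038, and Ch25h, also of this list, was at 6 and 0 counts and was too low for a difference.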
